A study of Mus musculus with 8 samples.

Results

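The genes described here encode 6 protein subunits of the signal recognition particle (SRP), 1 subunit of the SRP receptor and the 3 subunits of the Sec61 translocon. They were taken by symbol, as the entries named Srp9, Srp14, Srp19, Srp54a, Srp68, Srp72, Srprb, Sec61a1, Sec61b and Sec61g. The list was chosen with earlier results of these data known. All 10 were found among the 25574 genes of the expression table. The libraries came from Scarce Sample Polysome profiling of mouse oocytes, a sucrose gradient method for small samples. They compared messages that sedimented with polysomes (P) with messages from the lighter, non-polysomal region that was kept (NP). There were 4 NP and 4 P libraries, numbered NP1 to NP4 and P1 to P4, and the file header calls them 4 biological repetitions. The labels give both groups the strain CD1 and name no knockout or transgene.

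The oocytes of both groups were handled alike. Fully grown germinal vesicle oocytes were taken from CD1 mice of 8 weeks, 46 h after 5 IU of pregnant mare serum gonadotropin, and were held in 100 µM IBMX, which blocks nuclear envelope breakdown (NEBD). They were freed of cumulus cells and cultured without IBMX for 180 min in all, those that had undergone NEBD being selected on the way, and were then exposed to 0.1 mg/ml cycloheximide, which holds ribosomes on messages, for 10 min. A lysate of 200 oocytes was spun through a 10–50% sucrose gradient that was cut into 10 fractions. The top fraction went into neither group of libraries, and the authors do not fully exclude that it held some stored messages. The NP libraries were made from the pooled subunit and monosome region and the P libraries from the pooled polysome region. A library therefore averages the RNA of many pooled oocytes, and fewer cells with a message and less of that message per cell cannot be told apart.

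SRP is a complex of a small RNA and proteins that binds the signal sequence of a growing protein as it leaves the ribosome, slows its elongation and brings the ribosome to the endoplasmic reticulum (ER). There the SRP receptor hands the ribosome to Sec61, a channel through which secreted proteins are threaded into the ER and membrane proteins into its bilayer. Growing mouse oocytes send their zona pellucida proteins and the growth factors GDF9 and BMP15 along this route. The question the design asks of each gene is whether its message made up a larger or a smaller part of the polysomal than of the non-polysomal RNA.

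Values are FPKM, fragments per kilobase of gene scaled to the size of the library, so that they are per length. The length is that of the gene's annotation and need not be that of its message in oocytes. For Sec61g it was 2464 bases, with a coding sequence of 204 bases. Levels of different genes, and ratios between genes, are therefore approximate. FPKM is scaled within each library, so a P value and an NP value are each a share of that library and not an amount per oocyte. Differences between P and NP were tested with limma on log2(FPKM + 1), without pairing of libraries, and a log2 fold change below 0 means lower in P. A gene was called when its p-value, adjusted over the 14292 genes tested, was below 0.1.

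Between libraries the depth, the number of detected genes and the typical FPKM differed. The number to which each library had been scaled, recovered from the values, was 1299377 to 7594637 for the NP libraries and 2677946 to 4699328 for the P libraries. An NP library had 11703 to 13753 genes above 0 and a P library 9139 to 11339, and the median FPKM of the tested genes was 3.41 to 5.55 in NP and 1.05 to 3.02 in P. The median log2 fold change of all tested genes was −0.39, and the medians of gene lists below are set beside that value. The p-values, intervals and signs of single genes refer to 0 and are not corrected for that shift. All 9 oocyte markers examined were above 0, with summed FPKM of 5678 to 12025 in NP and 7977 to 29861 in P. Of 12 cumulus and granulosa markers, 7 were above 0 in at least 1 library, their sums were 15.3 to 142 in NP and 19 to 64 in P, and Inhba, Amhr2, Foxl2, Has2 and Ptx3 were at 0 in all 8. Of 4 blood and immune markers only Cd68 was above 0, at sums of 0 to 35.9 in NP and 0 in every P library.

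The entry named Srp54a needs a word on identity before its values. SRP54 is the subunit that binds the signal sequence and the GTP with which SRP and its receptor recognize each other, and the mouse genome carries 3 nearly identical copies in a cluster on chromosome 12. The table places its Srp54a at chr12:55239326-55263020 on the plus strand of GRCm38, and these coordinates and the length of 2317 bases recovered from its FPKM values are those of the transcript Srp54c-201 in GENCODE M21, where that locus is called Srp54c. Its entry named Srp54c lies at chr12:55089202-55112891, the locus that GENCODE calls Srp54a. The table's symbols are kept below. The stretch from coding base 906 to 965 is printed with the 3 positions at which the copies differ in capitals. It holds 3 of the 6 positions that vary among the copies over the coding sequence. Srp54c-201 is therefore easier to tell apart in this stretch than over most of that sequence, while Srp54a-201 and Srp54b-201 are the same in it.
Srp54a-201: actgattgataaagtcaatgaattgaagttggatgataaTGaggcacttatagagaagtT
Srp54b-201: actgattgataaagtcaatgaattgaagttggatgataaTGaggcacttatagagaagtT
Srp54c-201: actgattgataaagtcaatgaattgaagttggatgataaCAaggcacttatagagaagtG
These stretches lie on the plus strand at chr12:55102487-55102546, chr12:55177547-55177606 and chr12:55252791-55252850, in that order. Over the whole coding sequence of 1515 bases Srp54a-201 and Srp54b-201 had 0 differences, and each differed from Srp54c-201 at 6 positions, an identity of 99.6%. Of 1366 windows of 150 bases in the coding sequence, 844 (61.8%) were the same in Srp54a-201 and Srp54c-201. How reads that match several copies were counted was not given in the sources used here, so the levels of the 3 copies are uncertain.

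None of the 10 genes was called by limma. Over all genes 3 were called lower in P, which is 0.021% of those tested, and 0% were called higher. At an unadjusted p below 0.05 in limma 2 of the 10, Srp72 and Srp19, were lower in P, against 9.47% of all genes tested. At that level 0 of the 10 were higher, against 68 of the 14292 genes tested. With voom on the recovered counting steps 0 of the 10 were called, against 1.53% of all genes, and the same 2 genes were lower at an unadjusted p below 0.05, against 13%. In 3 genes, Srp14, Srp68 and Srp72, all 4 NP libraries lay above all 4 P libraries, against 5.92% of all genes tested, although only Srp72 did so after quantile normalization and none after the libraries were centred on their medians. No gene of the 10 had all P libraries above all NP libraries, which 0.357% of all genes did, but Sec61a1 did so after median centring. The median log2 fold change of the 10 genes was −0.84, and 7 of them lay below the all-gene median of −0.39. Relative to all genes the median of the 10 was −0.45. It moved to −0.02 without NP4, −0.07 with voom and −0.09 without P3, and to −0.69 without NP1.

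**Figure D1:**
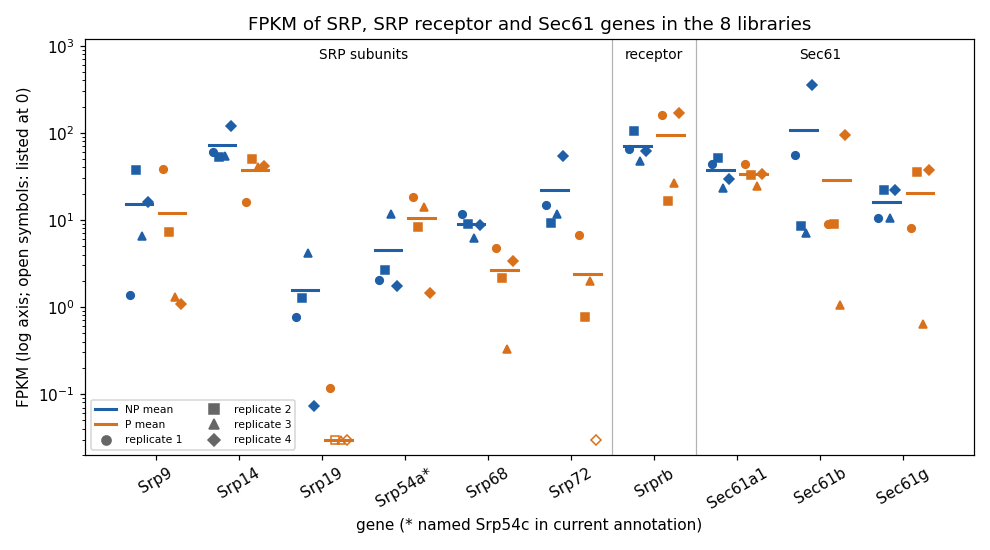
FPKM (log axis) of the 10 genes in each of the 4 NP (blue) and 4 P (orange) libraries, with symbol shapes for the replicate number, bars for the means and open symbols for values of 0. Srp14, Srp68 and Srp72 have all NP symbols above all P symbols on the deposited values, though only Srp72 after quantile normalization and none after median centring, while the symbols of the other 7 genes overlap.

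Srp72 had the log2 fold change farthest from 0 among the 10, while by the ratio of means Srp19 differed more. SRP72 forms with SRP68 the largest protein part of the particle, which is bound to the SRP RNA. Its gene lies at chr5:76974683-76999937 on the plus strand. In NP1 to NP4 its FPKM was 14.8, 9.15, 11.7 and 53.7, and in P1 to P4 it was 6.74, 0.764, 2.01 and 0. All NP libraries were above all P libraries, and NP4 alone held 60% of the NP sum. The mean was 22.3 ± 21 in NP and 2.38 ± 3.02 in P (both SD, n = 4), a 9.4-fold higher mean in NP. The log2 fold change was −2.85 with a standard error of 0.93 and a 95% interval of −4.85 to −0.86, and limma's adjusted p was 0.405. Over the 14 alternative analyses the adjusted p ran from 0.162 to 0.731, so the gene was called in none. Without NP4 the log2 fold change was −2.33. The 0 of P4 allows a level of up to 0.196 FPKM, the value that 3 counting steps would give, and such limits cover counting error only.

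Srp68, the partner of Srp72, lies at chr11:116245166-116274217 on the minus strand. Its FPKM was 11.8, 9, 6.12 and 8.66 in NP1 to NP4 and 4.74, 2.17, 0.329 and 3.41 in P1 to P4. The groups did not overlap, and the NP libraries lay close together. Means were 8.89 ± 2.32 in NP and 2.66 ± 1.88 in P (both SD, n = 4), so that P reached 0.299 of NP. The log2 fold change was −1.59 ± 0.84 (SE; 95% interval −3.39 to 0.21), with an adjusted p of 0.533 in limma. The low value in P3 rests on 4 counting steps and has an exact Poisson interval of 0.0896 to 0.842 FPKM, which covers counting error only. Within each library the Srp72 to Srp68 ratio was 1.26, 1.02, 1.91 and 6.2 in NP1 to NP4 and 1.42, 0.353, 6.1 and 0 in P1 to P4, so the 2 partners did not keep a fixed ratio in either group.

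Srp14 and Srp9 encode the heterodimer of the Alu domain, which slows elongation while the ribosome is brought to the membrane. Srp14, at chr2:118475850-118479711 on the minus strand, had FPKM values of 60.6, 52.8, 54.8 and 120 in NP1 to NP4 and 16.0, 50.6, 40.8 and 41.6 in P1 to P4. NP lay above P throughout, but NP2 and P2 were only a little apart, at 52.8 and 50.6. Mean FPKM was 72.2 ± 32.3 in NP and 37.3 ± 14.8 in P (both SD, n = 4), 0.516 of the NP mean. Its log2 fold change was −0.96 ± 0.61 (SE; 95% interval −2.27 to 0.35) with an adjusted p of 0.595 in limma, and it came to −0.00 after median centring.

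Srp9, at chr1:182124737-182132407 on the plus strand, was far more uneven than its partner. Its FPKM was 1.36, 37.4, 6.47 and 15.9 in NP1 to NP4 and 38.4, 7.23, 1.30 and 1.08 in P1 to P4. The groups overlapped from end to end, and P1 held 80% of the P sum. Means were 15.3 ± 15.9 in NP and 12.0 ± 17.8 in P (both SD, n = 4). The log2 fold change was −0.72 ± 1.13 (SE; 95% interval −3.14 to 1.70), with an adjusted p of 0.79 in limma, and its sign turned under quantile normalization (0.09) and median centring (0.24). The Srp9 to Srp14 ratio, the level of 1 partner over the other, was 0.0225, 0.708, 0.118 and 0.132 in NP1 to NP4 and 2.4, 0.143, 0.0319 and 0.026 in P1 to P4. A processed pseudogene, Gm17968, lies on the opposite strand within Srp9, and whether strand was used in counting was not given in the sources used here.

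Srp19 was the least abundant of the 10 in both groups. SRP19 binds the SRP RNA and prepares it for SRP54. The gene is at chr18:34330847-34336599 on the plus strand. FPKM was 0.777, 1.27, 4.16 and 0.0725 in NP1 to NP4 and 0.117, 0, 0 and 0 in P1 to P4. The groups overlapped only because P1 was above NP4, and those values rest on 2 counting steps each. Mean FPKM was 1.57 ± 1.80 in NP and 0.0293 ± 0.0586 in P (both SD, n = 4). There were 127 counting steps in NP, of which 110 were in NP3, and 2 in P, a ratio of rates of 0.0203 with an exact interval of 0.00243 to 0.0748 that covers counting error only. The zeros of P2, P3 and P4 allow up to 0.258, 0.186 and 0.309 FPKM. The log2 fold change of −1.08 ± 0.46 (SE; 95% interval −2.07 to −0.09) had an adjusted p of 0.47 in limma, and was −0.66 without NP3 and −0.12 after median centring. It was −3.0 with a pseudocount of 0.1 and −3.85 with voom, and the adjusted p over all 14 alternatives was 0.223 to 0.916.

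The entry named Srp54a was the only 1 of the 6 SRP genes with a higher mean in P. Its FPKM was 2.03, 2.66, 11.6 and 1.76 in NP1 to NP4 and 18.4, 8.35, 14.1 and 1.45 in P1 to P4. P1, P2 and P3 were higher than NP1, NP2 and NP4, whereas P4 was the lowest of all 8 libraries. The mean was 4.52 ± 4.75 in NP and 10.6 ± 7.33 in P (both SD, n = 4), 2.34 times the NP mean. Its log2 fold change of 1.03 ± 0.94 (SE; 95% interval −0.99 to 3.05) had an adjusted p of 0.681 in limma, and the fold change was above 0 in all 14 alternatives, at 1.81 after quantile normalization and 1.99 after median centring. The adjusted p over those alternatives was 0.21 to 0.793. The P4 value rests on 9 counting steps and has an exact Poisson interval of 0.663 to 2.75 FPKM, which takes in NP1, NP2 and NP4. The other copies, both named because they complete the cluster, had lower means in both groups, though Srp54b was above Srp54a in NP1 and P4. Srp54b, at chr12:55155104-55189213, had FPKM values of 5.82, 0.937, 1.84 and 1.12 in NP1 to NP4 and 3.24, 2.56, 1.51 and 3.41 in P1 to P4. The entry named Srp54c had at most 0.508 in NP and 0.739 in P, from 7 counting steps over the NP and 4 over the P libraries. Their log2 fold changes were 0.27 ± 0.78 and −0.14 ± 0.29 (SE), with adjusted p-values of 0.891 and 0.835 in limma.

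**Figure D2:**
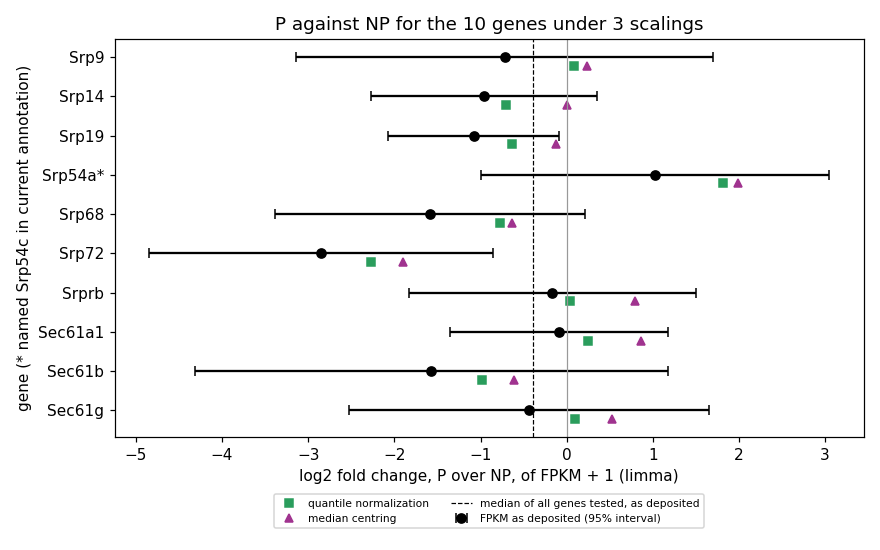
log2 fold change of FPKM + 1, P over NP, with limma's 95% interval (black) for the 10 genes, and the same quantity after quantile normalization (green squares) and median centring (purple triangles). The dashed line is the all-gene median of −0.39. Srp72 is farthest to the left at −2.85 and Srp54a farthest to the right at 1.03, and the signs of Srp9, Srprb, Sec61a1 and Sec61g turn under both other scalings.

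The SRP receptor anchors the particle to the ER through its beta subunit, a membrane GTPase encoded by Srprb, at chr9:103188033-103202137 on the minus strand. Srprb FPKM was 64.6, 105, 47.7 and 62.4 in NP1 to NP4 and 159, 16.7, 26.7 and 171 in P1 to P4. The P libraries fell on both sides of the NP range, with P1 and P4 above it and P2 and P3 below. Means were 69.9 ± 24.5 in NP and 93.3 ± 82.9 in P (both SD, n = 4), so P had the higher mean, 1.33 of NP, and a log2 fold change of −0.17 ± 0.78 (SE; 95% interval −1.83 to 1.5), adjusted p 0.93 in limma. The ratio of means and the log2 fold change thus differed in sign, and the latter turned to 0.04 after quantile normalization and 0.79 after median centring. Gm20425, a longer gene on the same strand from 103190208 to 103230307, overlaps Srprb, and its own FPKM was 26.5 to 48 in NP and 9.89 to 88.7 in P, so reads of the shared part cannot be assigned with certainty.

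Srpr encodes the alpha subunit, which meets SRP54 at the membrane and is held there by the beta subunit. At chr9:35200175-35247973, it had FPKM values of 8.1, 5.03, 20.2 and 233 in NP1 to NP4 and 8.67, 33.6, 3.01 and 6.44 in P1 to P4. NP4 stood far above the other 7 libraries. Mean FPKM was 66.7 ± 111 in NP and 12.9 ± 14.0 in P (both SD, n = 4), with a log2 fold change of −1.19 ± 1.09 (SE) and an adjusted p of 0.681 in limma. The Srpr to Srprb ratio was 0.125, 0.048, 0.424 and 3.74 in NP1 to NP4 and 0.0546, 2.01, 0.113 and 0.0377 in P1 to P4. The FPKM of Srpr thus exceeded that of Srprb in NP4 and P2 and was lower in the other 6 libraries.

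Sec61a1 encodes the pore of the translocon, a protein of many membrane spans to which the ribosome docks. The gene is at chr6:88503601-88518905 on the minus strand. It was the steadiest of the 10, with FPKM values of 44.0, 51.1, 23.1 and 29.8 in NP1 to NP4 and 43.3, 33.2, 24.6 and 33.6 in P1 to P4. Each P value lay inside the NP range. Mean FPKM was 37.0 ± 12.8 in NP and 33.7 ± 7.63 in P (both SD, n = 4), 0.911 of NP. The log2 fold change was −0.09 ± 0.59 (SE), with an adjusted p of 0.95 in limma and a 95% interval of −1.35 to 1.17 that leaves room for a difference of more than 2-fold either way. After quantile normalization it was 0.25, and after median centring 0.86. The SD within groups was 0.42 on the log2 scale, at percentile 12.8 of all tested genes and at percentile 1.86 of the 6415 genes with a mean FPKM of at least 10. An antisense transcript, Gm44170, overlaps the end of the gene. The paralogue Sec61a2 was above 0 in NP3 (0.506 FPKM) and P3 (0.237 FPKM) and listed at 0 in the other 6 libraries.

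The 2 small subunits, each with a single membrane span, were less even than the pore. Sec61b, at chr4:47474658-47483242 on the plus strand, had FPKM values of 55.7, 8.48, 7.03 and 358 in NP1 to NP4 and 9.04, 9.08, 1.06 and 95.2 in P1 to P4. NP4 held 83.4% of the NP sum and P4 83.2% of the P sum. Means were 107 ± 168 in NP and 28.6 ± 44.6 in P (both SD, n = 4), 0.267 of NP, with a log2 fold change of −1.57 ± 1.28 (SE; 95% interval −4.31 to 1.18) and an adjusted p of 0.657 in limma. The fold change was −0.45 without NP4 and −0.72 without P3. Its SD within groups of 2.43 on the log2 scale was at percentile 98.7 of all tested genes and at percentile 97.2 of those with a mean FPKM of at least 10. The summed FPKM of the 12 cumulus and granulosa markers was 16.7, 15.3, 97.7 and 142 in NP1 to NP4 and 32.8, 64, 36.1 and 19 in P1 to P4, highest of the NP sums in NP4 and lowest of the P sums in P4. Among these markers Cyp11a1 had its highest NP value in NP4 (46.4 FPKM) and its highest P value in P4 (17.9). Cyp19a1 was above it in NP4, at 75.2 FPKM, but was at 0.629 in P4. Nr5a2 was at 16.2 FPKM in NP4 and 0.487 in P4. The part of these markers in the Sec61b values was not tested.

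Sec61g, at chr11:16500530-16508484 on the minus strand, had FPKM values of 10.4, 21.9, 10.5 and 22.1 in NP1 to NP4 and 8.03, 35.1, 0.639 and 37.4 in P1 to P4. The P libraries again spread to both sides of the NP range, with P2 and P4 above it and P1 and P3 below. Mean FPKM was 16.2 ± 6.66 in NP and 20.3 ± 18.7 in P (both SD, n = 4), and the log2 fold change was −0.44 ± 0.97 (SE; 95% interval −2.53 to 1.65) with an adjusted p of 0.852 in limma, so the P mean was higher while the log2 fold change was below 0. Without P3, where Sec61g rests on 7 counting steps, it was 0.52, and it was 0.10 after quantile normalization and 0.52 after median centring.

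The 3 subunits are joined in equal numbers in the channel, and the FPKM of their genes was compared within each library. The Sec61b to Sec61a1 ratio was 1.27, 0.166, 0.304 and 12 in NP1 to NP4 and 0.209, 0.274, 0.0431 and 2.84 in P1 to P4. For Sec61g over Sec61a1 the ratio was 0.237, 0.428, 0.453 and 0.743 in NP1 to NP4 and 0.185, 1.06, 0.0259 and 1.12 in P1 to P4. Both ratios were highest in replicate 4 of each group and lowest in P3, and the NP and P ranges overlapped in both.

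In order of mean NP level the genes ran Sec61b (107 FPKM), Srp14 (72.2), Srprb (69.9), Sec61a1 (37), Srp72 (22.3), Sec61g (16.2), Srp9 (15.3), Srp68 (8.89), Srp54a (4.52) and Srp19 (1.57). In order of mean P level they ran Srprb (93.3 FPKM), Srp14 (37.3), Sec61a1 (33.7), Sec61b (28.6), Sec61g (20.3), Srp9 (12), Srp54a (10.6), Srp68 (2.66), Srp72 (2.38) and Srp19 (0.0293). The ranges of neighbouring genes overlapped at every step in both orders, so the ranges alone give no firm order of neighbours. Within each NP library, however, Srprb was above Sec61a1 and Srp54a above Srp19. Srp72 was the fifth in NP and the ninth in P, and Srp54a the ninth in NP and the seventh in P. Summed over the 6 SRP genes, FPKM was 91.4, 112, 94.9 and 201 in NP1 to NP4 and 84.4, 69.1, 58.6 and 47.5 in P1 to P4, all P sums being below all NP sums. The scale of each library enters these sums, and they were not recomputed under the other scalings. The Sec61 sum was 110, 81.4, 40.6 and 410 in NP1 to NP4 and 60.4, 77.3, 26.3 and 166 in P1 to P4, and the groups overlapped.

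Ranks within a library do not depend on its scale, so each gene was also placed among the tested genes of its own library. Such ranks use the same ordering as quantile normalization and are not a separate check. They depend on how many genes are at 0, and the P libraries had fewer genes above 0. Srp68 was at percentile 60.1 in P4 with 3.41 FPKM and at 51.8 in NP3 with 6.12 FPKM. Srp72 was at percentiles 69.3, 61, 63.2 and 86.6 in NP1 to NP4 and 60.1, 41.9, 52.4 and 18.2 in P1 to P4, and was the only 1 of the 10 genes whose NP percentiles were all above its P percentiles, as were those of 2.53% of all genes tested. Those of Srp14 overlapped, with medians of 87.6 in NP and 86.2 in P, and so did those of Srp68, with medians of 61.7 and 53.9. Srp54a moved the other way, from a median percentile of 42.3 in NP to 70.7 in P, again with overlap. The most even ranks were those of Sec61a1, between 75.5 and 85.7 in all 8 libraries, while those of Sec61b went from 54 to 98 over the NP libraries and from 46.5 to 92.4 over the P libraries. Srprb was at a median percentile of 88 in NP and 88.6 in P, so among the messages of either pool it stood high.

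**Figure D3:**
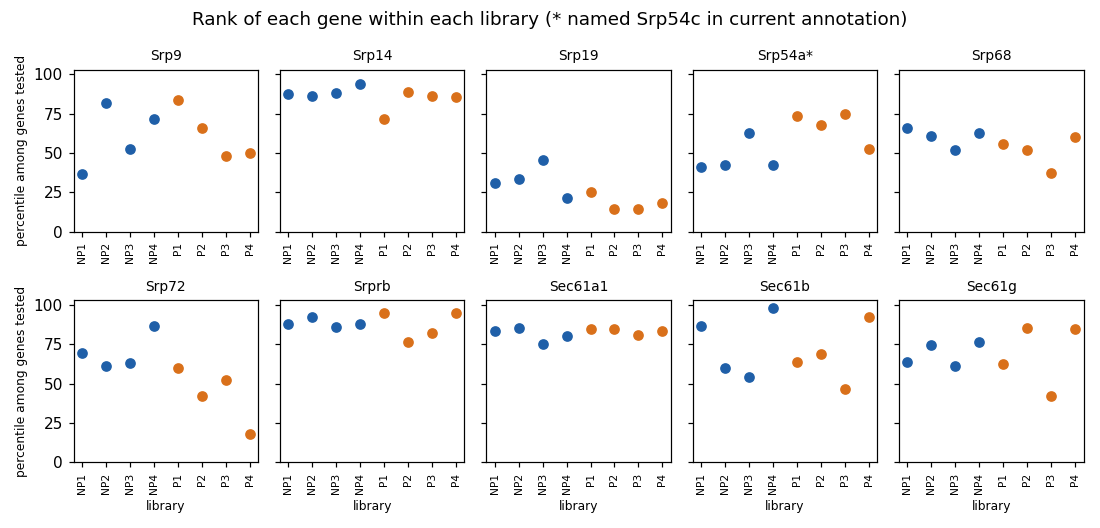
Percentile of each gene's FPKM among the genes tested, within each NP (blue) and P (orange) library, with 1 panel a gene. Srp72 is the only panel in which all blue points are above all orange points, Sec61a1 stays between 75.5 and 85.7, and Srp54a has medians of 42.3 in NP and 70.7 in P with overlapping points.

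The libraries were uneven in which genes they favoured. P1 was the highest P library for 6 of the 10 genes and P3 for 0, and P3 was the lowest for 5, for Srp19 in a tie at 0 with P2 and P4. NP4 was the highest NP library for 4 genes, and its summed FPKM over the 10 was 672 against 183 to 299 in the other NP libraries. In P the sums were 303, 163, 112 and 385 for P1 to P4. The most abundant of the 10 was Srprb in NP1, NP2, P1 and P4, Srp14 in NP3, P2 and P3, and Sec61b in NP4. Within-group SDs on the log2 scale stood at percentile 92.7 of all tested genes for Srp9 (1.85) and 84.3 for Sec61g (1.57), and at percentile 24.7 for Srp14 (0.64) and 28.8 for Srp68 (0.69). Among the 10, the coding lengths of the 4 with the largest within-group SDs were 288 bases (Sec61b), 258 (Srp9), 204 (Sec61g) and 807 (Srprb), and that of Sec61a1 was 1428. Close to the SD of Srprb (1.25) were those of Srp54a (1512 bases, 1.19) and Srp72 (2013 bases, 1.17). Smaller SDs were those of Srp68 (1875 bases), Srp19 (432 bases, 0.67) and Srp14 (330 bases). Srp19 did not exceed 4.16 FPKM in any library, and at such levels the added 1 FPKM keeps an SD small. Its SD therefore does not show even levels, and NP3 alone held 66.2% of its NP sum. A link between coding length and spread was not tested.

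The rest of the pathway was followed with a list of 42 further genes, of which 40 were in the table, 9 of them under older names and matched by locus, and 39 were tested. None was called by limma or by voom, against 0.021% of all genes called lower in P by limma and 1.53% called in either direction by voom. In limma 5 of the 39 had an unadjusted p below 0.05 and were lower in P, against 9.47% of all genes tested. They were Tram1, Ubl4, Wrb, Naca and Btf3. At that level 0 of the 39 were higher, against 68 of all 14292 genes. In 2 of the 39, Tram1 and Ubl4, all NP libraries lay above all P libraries, against 5.92% of all genes. The reverse held for 0, against 0.357%. The median log2 fold change of the 39 was −0.51, beside −0.39 over all genes tested, and 22 of the 39 lay below the all-gene median. The RNA of the particle itself was looked for under Rn7s1 and Rn7s2 and is not analysed here.

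**Figure D4:**
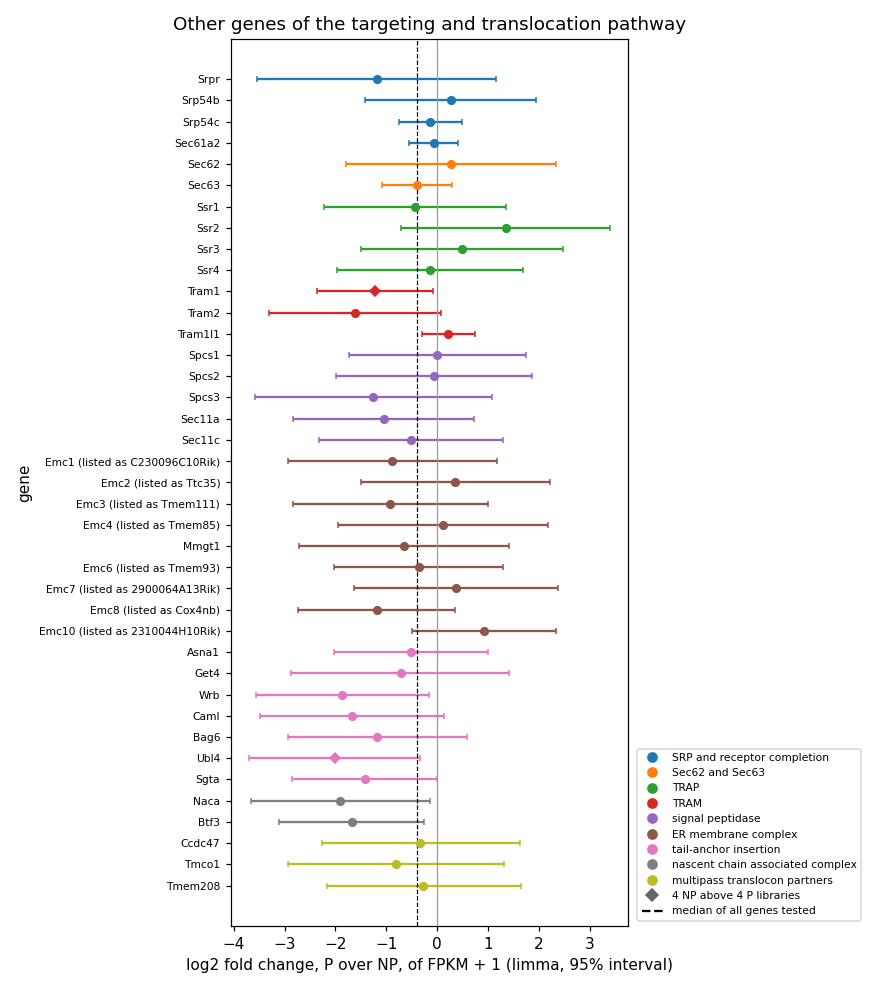
log2 fold change of FPKM + 1, P over NP, with limma's 95% interval for 39 further genes of the pathway, coloured by complex, with diamonds for genes whose 4 NP libraries were all above the 4 P libraries and a dashed line at the all-gene median of −0.39. All 7 tail-anchor insertion genes are to the left of the dashed line, as are Naca and Btf3, and the 4 TRAP genes lie around a median of 0.18.

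Genes that work beside the Sec61 channel were placed on both sides of the all-gene median. TRAM1 is a membrane protein that meets signal sequences as they enter the channel. Tram1 had FPKM values of 105, 135, 122 and 159 in NP1 to NP4 and 45.9, 39.5, 60.2 and 80.3 in P1 to P4. NP and P did not overlap, on the deposited values and after quantile normalization, but they did after median centring. Means were 130 ± 22.7 in NP and 56.5 ± 18.1 in P (both SD, n = 4), with a log2 fold change of −1.23 ± 0.53 (SE) and an adjusted p of 0.479 in limma. The 4 subunits of TRAP, a complex bound to the channel that helps certain signal sequences, had a median log2 fold change of 0.18, and the most abundant, Ssr3, had 0.49 ± 0.92 (SE), adjusted p 0.823 in limma. Its FPKM was 9.09 to 45.4 in NP and 5.01 to 125 in P. Sec62 and Sec63, which serve proteins that enter after their synthesis is complete, had log2 fold changes of 0.27 and −0.39, a median of −0.06. Sec62 was above 2 FPKM in NP3, P2, P3 and P4 only, at 9.01, 2.28, 12.3 and 3.01. Sec63 reached at most 1.81 FPKM in NP and 0.0355 in P, where the added 1 FPKM keeps a log2 fold change small. Its values rest on 119 counting steps in NP, of which 116 were in NP3, and 2 in P. The 5 genes of the signal peptidase, which removes signal sequences, had a median of −0.51, with Spcs1 at 0.00 ± 0.81 (SE), adjusted p 0.999 in limma.

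For the ER membrane complex, which inserts membrane proteins whose spans Sec61 handles poorly, 9 genes were tested, with a median log2 fold change of −0.36. Its most abundant gene, Emc8, listed in the table as Cox4nb, had FPKM values of 134, 266, 46.3 and 174 in NP1 to NP4 and 68.1, 129, 18.3 and 62.3 in P1 to P4. The groups overlapped, and the log2 fold change was −1.19 ± 0.72 (SE), adjusted p 0.575 in limma. Of 3 genes that assist the channel with proteins of many spans or act on a related route, Tmco1 had the highest mean, at −0.81 ± 0.99 (SE), adjusted p 0.739 in limma, and the median of the 3 was −0.33.

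The tail-anchor genes serve the separate route by which proteins with a single span at their end reach the ER. All 7 had log2 fold changes below the all-gene median, from −2.01 to −0.51 with a median of −1.42, and none was called. Ubl4, listed under this symbol and part of the complex that receives such proteins from the ribosome, had FPKM values of 2.39, 2.69, 1.62 and 19.5 in NP1 to NP4 and 0, 0.298, 0 and 0.951 in P1 to P4. Its groups did not overlap on the deposited values, though they did after quantile normalization and after median centring, and its log2 fold change was −2.01 ± 0.78 (SE), adjusted p 0.44 in limma, from 538 counting steps in NP and 11 in P. Caml, a part of the receptor on the ER, was the most abundant of the 7, with 218, 332, 80.4 and 127 FPKM in NP1 to NP4 and 292, 27.4, 14 and 57.7 in P1 to P4. P1 fell inside the NP range and the other 3 P libraries below it, and the log2 fold change was −1.68 ± 0.84 (SE), adjusted p 0.525 in limma.

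The nascent chain associated complex binds emerging chains at the ribosome exit and keeps SRP from chains without a signal sequence. Both its genes lay below the all-gene median, at −1.91 for Naca and −1.68 for Btf3, and neither was called. Btf3 had FPKM values of 136, 193, 98.4 and 83.7 in NP1 to NP4 and 84.4, 40.2, 48.1 and 11.4 in P1 to P4. Only P1 and NP4 crossed, by less than 1 FPKM, and the means were 128 ± 48.7 in NP and 46 ± 30.1 in P (both SD, n = 4). The log2 fold change was −1.68 ± 0.67 (SE), with an adjusted p of 0.445 in limma.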

How the data were processed

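Per the labels and methods, RNA of the pooled NP and P fractions was depleted of rRNA, reverse transcribed with random and oligo(dT) primers, amplified and made into Nextera libraries. Trim Galore 0.4.1, FastQC 0.11.5 and HISAT2 2.0.5 with the GRCm38 genome are named in the authors' processing notes, and the authors computed FPKM in Seqmonk. The deposited FPKM values are linear and scaled per library. The other deposited tables hold the authors' own means, ratios, log2 fold changes and p-values and were not used.

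Groups and replicate numbers were taken from the labels. FPKM values were tested with limma 3.58.1 in R 4.3.3 (lmFit, eBayes with a trend, 2-sided) on log2(FPKM + 1). Genes entered with a mean above 0.1 FPKM in at least 1 group, and p-values had Benjamini-Hochberg adjustment. The procedure was tested on simulated data with a smaller spread within groups than in the real data. That test therefore does not show how large a difference could be called here. The FPKM values that 1 gene takes in 1 library rise in equal steps. Their size was recovered, within 0.01 steps, for 91.5% of the 15585 genes above 0, including all 10 members, using annotated lengths or lengths searched between 100 and 30000 bp. Whether a step is 1 read or 1 fragment is not known. Amplified reads without molecular identifiers are not independent molecules, so intervals cover counting error only.

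Alternatives were quantile normalization, median centring, a pseudocount of 0.1, no filter, the replicate number as a block, omission of each library, and voom on the steps. The members and lists were chosen with earlier results of these data known. Named were all members, the genes that complete their complexes, any further pathway gene that was called or whose groups did not overlap, and the most abundant gene of each pathway list. Naca, Wrb, Sec63, Cyp11a1, Cyp19a1 and Nr5a2 were named after their values were seen. Genes were placed on GENCODE M21 by locus, with a minimum reciprocal overlap of 0.5, and 23422 of 25574 matched.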

Additional observations from a re-analysis of the deposited data

Results flagged for a closer look

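A library was taken as far from the others of its group when its gap to the nearest of them, divided by the group's range, was above Dixon's 95% critical value for 4 values. Among the named genes this held for 14 of 46 groups, and for 7 of 20 groups among the 10 genes, while it held for 28.2% of the 26759 groups over all genes tested. Chance gives about 1 in 20 for normally distributed values, which linear FPKM are not, and a group with 3 values of 0 has a gap of 1 by construction. The cause was not tested.

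NP4 stood apart for Srp14 (120 against 52.8 to 60.6 FPKM, gap 0.885 of the range), Srp72 (53.7 against 9.15 to 14.8, 0.872) and Sec61b (358 against 7.03 to 55.7, 0.861). The same library stood apart for the receptor gene Srpr (233 against 5.03 to 20.2 FPKM, 0.934), for Ssr3 (45.4 against 9.09 to 14.3, 0.857) and for Ubl4 (19.5 against 1.62 to 2.69, 0.94). P4 stood apart for Sec61b (95.2 against 1.06 to 9.08 FPKM, 0.915). P1 stood apart for Srp9 (38.4 against 1.08 to 7.23 FPKM, 0.835) and for Caml (292 against 14 to 57.7, 0.843), and for Srp19 because it was the only P library above 0 (0.117 FPKM, 1).

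NP3 stood apart for Srp54a (11.6 against 1.76 to 2.66 FPKM, 0.909) and for Sec62 (9.01 against 0.776 to 1.26, 0.941). Sec61a2 was above 0 in 1 library of each group, NP3 (0.506 FPKM, 1) and P3 (0.237 FPKM, 1).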

How the results depend on the processing

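In all 14 alternatives 0 of the 10 genes and 0 of the 39 further pathway genes were called. Of the alternatives, scaling between libraries turned the most signs. The median log2 fold change of all tested genes was −0.39 as deposited, −0.02 after quantile normalization and 0.57 after median centring. Relative to these medians that of the 10 genes was −0.45, −0.28 and −0.45, and on its own it was −0.84, −0.30 and, reversed, 0.12. The relative median was close to 0 with voom (−0.07) and with a pseudocount of 0.1 (−0.11). Over all 14 alternatives it ran from −0.69 without NP1 to −0.02 without NP4. The count of genes with all NP above all P libraries went from 3 to 1 after quantile normalization and 0 after median centring, where 2.53% and 0.812% of all genes had it, and the count with all P above all NP went from 0 to 1 after median centring, where 12.1% had it. Signs turned for Srp9 (0.09 and 0.24 after quantile normalization and median centring), Srprb (0.04 and 0.79), Sec61a1 (0.25 and 0.86, and 0.02 with voom) and Sec61g (0.10 and 0.52). When each library was left out in turn, the log2 fold change ran from −0.67 to 0.42 for Srprb, from −0.29 to 0.08 for Sec61a1 and from −1.0 to 0.52 for Sec61g. The other 6 genes kept their sign in all 14 alternatives, but Srp19 and Srp72 went to −3.0 and −4.03 with a pseudocount of 0.1 and to −3.85 and −4.55 with voom. Over all genes, voom called 206 of 13467, a pseudocount of 0.1 called 5, and quantile normalization, median centring and no filter called 0, beside 3 with limma. Leaving out a library gave 0 to 5.

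The labels number the libraries 1 to 4 in both groups but do not say that a number marks 1 gradient. Deviations of same-numbered libraries correlated at 0.139, 0.0518, 0.251 and 0.155 over 11374 genes. For each P library the same-numbered NP library gave the highest correlation, though for P1 that of NP2 was close (0.136). NP2 itself correlated better with P1 than with P2. The main fit took no pairs because not all same-number values were above 0.1, which does not show that the libraries were unpaired. By the methods, the NP and P regions of the same profiles were pooled, so the libraries came in pairs. The standard errors, intervals and limma p-values given for single genes ignore such pairs. Under the replicate block limma called 1 of all genes instead of 3, 0 of the 10 were called, 3 of the 10 (Srp72, Srp19 and Sec61b) were lower in P at an unadjusted p below 0.05, where 11.3% of all genes were, and their lowest adjusted p in limma was 0.328, for Srp72. The median of the 10 stayed at −0.84.

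Depth limits Srp19 and the low values of Srp9, Srp54a, Srp68, Srp72, Sec61b and Sec61g, which rest on 14 or fewer counting steps.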
